A study of Mus musculus with 16 samples.

Results

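Genes of oxidant production and removal, 9 in all, were followed in engrafted brain macrophages and host microglia of bone marrow chimeras, with and without a challenge by the bacterial endotoxin lipopolysaccharide (LPS). They were taken by symbol from the table of 24411 genes, and all 9 symbols were found. Of these, 6 belong to the phagocyte NADPH oxidase (Cybb, Cyba, Ncf1, Ncf4, Rac2 and Hvcn1) and 3 encode antioxidant enzymes (Sod2, Gpx1 and Cat). All mice were C57BL/6J recipients labelled WT that had been irradiated with 950 cGy and had received donor bone marrow, so the host microglia of every group were irradiated and the engrafted cells were not. The labels give no age of the recipients. They allow 3.5 or 9 months between transfer and challenge, and the study's text names 9 months for the LPS experiment. Engrafted cells carried CD45.1 and host microglia CD45.2, and both were sorted from the brain of the same mouse. The 4 groups of 4 libraries were engrafted cells and host microglia of 4 mice given 2.5 mg/kg LPS 12 h before sacrifice (mice 1 to 4), and engrafted cells and host microglia of 4 mice that were not injected (mice 5 to 8). The labels and the study's account of these transcriptomes give WT marrow, and non-irradiated microglia were not analysed here.

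The phagocyte NADPH oxidase, also called NOX2, moves electrons from NADPH across a membrane onto oxygen and so makes superoxide. Its membrane part is a pair of proteins encoded by Cybb and Cyba, and it becomes active when cytosolic subunits, among them those encoded by Ncf1 and Ncf4, and the small GTPase Rac join it. Hvcn1 encodes a voltage-gated proton channel that balances the charge this current leaves behind. Superoxide is turned into hydrogen peroxide, in mitochondria by the manganese superoxide dismutase that Sod2 encodes, and hydrogen peroxide is removed by glutathione peroxidases such as the product of Gpx1 and by catalase, the product of Cat. In the brain, microglia and other macrophages are the cells best known for this oxidase.

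Each library held between 395283 and 1203597 reads on genes. All p-values across genes are from edgeR's quasi-likelihood test on the read counts. Levels are given as CPM, read counts scaled to a common library size by edgeR's TMM method, and are compared between libraries and not between genes. A count of 0 allows up to 3 reads, which was 2.39 to 8.41 CPM depending on the library, and this limit covers counting error only. The 7 microglia markers checked had reads in all groups, with summed levels of 12600 to 13900 CPM in engrafted cells and 17100 to 19900 CPM in host microglia without LPS, and of 4630 to 5940 and 8360 to 9680 CPM after LPS. The library of engrafted cells from LPS mouse 4 stood apart, with the fewest reads of all and a Spearman rank correlation of 0.838 to 0.842 with the other libraries of its group, which reached 0.949 among themselves. It also held the most reads of 5 red blood cell markers, 6608 CPM in sum, followed by the engrafted library of mouse 8 with 4724 CPM and by the host libraries of mice 4 and 8 with 881 and 767 CPM, against 2.60 to 167 CPM in the other libraries. Summed over 7 monocyte markers, engrafted cells held 175 to 293 CPM without LPS and 962 to 2060 CPM with LPS, and host libraries 8.77 to 50.1 CPM. Summed over 12 neutrophil markers, engrafted cells held 360 to 1380 CPM without LPS and 100 to 560 CPM with LPS, and host libraries 61.9 to 275 CPM. The host sums were mostly Csf3r (197 ± 53.9 CPM without LPS, SD, n = 4, against 101 ± 24.4 CPM in engrafted cells), and 1 to 3 of the 12 markers had reads in a host library without LPS. In an engrafted library without LPS 6 to 8 of the 12 had reads, and Mpo and Cxcr2 had none in that group. Markers that separated the populations included S100a8, S100a9, Ngp and Camp. Engrafted cells without LPS held 132 ± 84.0 CPM of S100a8, 237 ± 199 of S100a9, 96.7 ± 82.1 of Ngp and 59.4 ± 62.1 of Camp. Each of these had at most 2 reads in any host library without LPS. Ly6g had at most 2 reads in any library. The sort had gated on cells negative for Ly6C and Ly6G.

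The sequences before the start sites of Cybb and Sod2 are shown because Cybb differed most between both populations and Sod2 answered LPS most strongly among the 9 genes. They were read from the genome build of the deposited counts, NCBI37 (mm9), as the 250 bases before the start of the transcript in the table, 5′ to 3′ on the strand of the gene. Capitals mark matches to 4 motifs searched on both strands, namely the AP-1 element TGANTCA, the antioxidant response element TGACNNNGC, the PU.1 core GAGGAA and the NF-kappaB element. The upstream region of Cybb lies at chrX:9046451-9046700 on the minus strand and that of Sod2 at chr17:13200455-13200704 on the plus strand.
Cybb: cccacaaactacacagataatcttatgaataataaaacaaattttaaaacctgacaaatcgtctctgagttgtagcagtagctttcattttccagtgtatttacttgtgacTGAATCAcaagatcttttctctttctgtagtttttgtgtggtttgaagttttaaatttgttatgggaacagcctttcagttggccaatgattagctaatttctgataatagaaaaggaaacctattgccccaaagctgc
Sod2: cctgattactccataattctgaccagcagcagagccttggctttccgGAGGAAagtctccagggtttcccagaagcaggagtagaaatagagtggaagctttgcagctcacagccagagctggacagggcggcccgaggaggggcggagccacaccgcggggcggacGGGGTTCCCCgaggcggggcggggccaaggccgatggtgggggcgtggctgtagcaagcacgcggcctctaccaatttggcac
The capitals of Cybb are an AP-1 element that starts 139 bases before the transcript. Those of Sod2 are a PU.1 core 203 bases before the start and an NF-kappaB element 83 bases before it, which reads as a match on either strand. Over 24341 windows of the same length, one for each gene of the table that allowed it, 6.16% held the AP-1 element, 10.6% the antioxidant response element, 22.9% the PU.1 core and 7.75% the NF-kappaB element. Windows of Ncf4, Gpx1 and Cat also held a match to the NF-kappaB element, and none of the 9 held the antioxidant response element. The base composition differed, with 34% G and C before Cybb and 63.6% before Sod2. A match in these windows describes letters and not the binding of a factor.

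Cybb, the catalytic subunit of the oxidase (NM_007807, chromosome X, 9012380 to 9046450 of mm9, minus strand), separated engrafted cells from host microglia and answered LPS in host microglia. Without LPS the engrafted libraries held 963, 1001, 950.3 and 930.5 CPM and the host libraries 32.2, 41.8, 47.1 and 40.8 CPM. With LPS the engrafted libraries held 1314, 1232, 1030.5 and 488 CPM and the host libraries 250.01, 225, 117 and 83.5 CPM. Every engrafted library lay above every host library, and the host libraries with LPS all lay above those without. The order of the means was host without LPS (40.5 ± 6.15 CPM, SD, n = 4), host with LPS (169 ± 81.1), engrafted without LPS (961 ± 29.9) and engrafted with LPS (1016 ± 372), and both engrafted groups did not differ beyond their spread.

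The log2 fold change of Cybb between engrafted cells and host microglia was 4.6 without LPS (24.3-fold, SE 0.144, adjusted p = 4.68e-18, edgeR, Benjamini-Hochberg) and 2.61 with LPS (6.09-fold, SE 0.336, adjusted p = 1.77e-05 from edgeR). In host microglia Cybb rose 4.11-fold with LPS (log2 fold change 2.04, SE 0.269, adjusted p = 2.74e-06 from edgeR). In engrafted cells the log2 fold change was 0.04 (95% interval -0.40 to 0.48, adjusted p = 0.912 from edgeR), and its sign turned with library totals as the scale (-0.03). The difference between these effects was tested, and the LPS effect was lower in engrafted cells than in host microglia (interaction on the log2 scale -2.01, SE 0.380, adjusted p = 0.00129 from edgeR). Within single mice, engrafted cells held 20.2 to 29.9 times the Cybb of host microglia without LPS and 5.26 to 8.80 times with LPS. In these bulk samples, fewer cells of a type and less RNA per cell cannot be told apart. Neutrophils and monocytes are also rich in this oxidase. The summed markers of B cells, of T and NK cells and of red blood cells overlapped between the populations without LPS. Those of border macrophages, monocytes and neutrophils separated the populations in the same direction as Cybb. Border macrophage markers summed to 751 to 880 CPM in engrafted cells and 17.6 to 29.5 CPM in host microglia, and monocyte markers to 175 to 293 and 8.77 to 23.5 CPM. The neutrophil marker sum was 360 to 1380 CPM in engrafted cells and 146 to 275 CPM in host microglia. Their part in the Cybb difference was not tested.

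**Figure D1:**
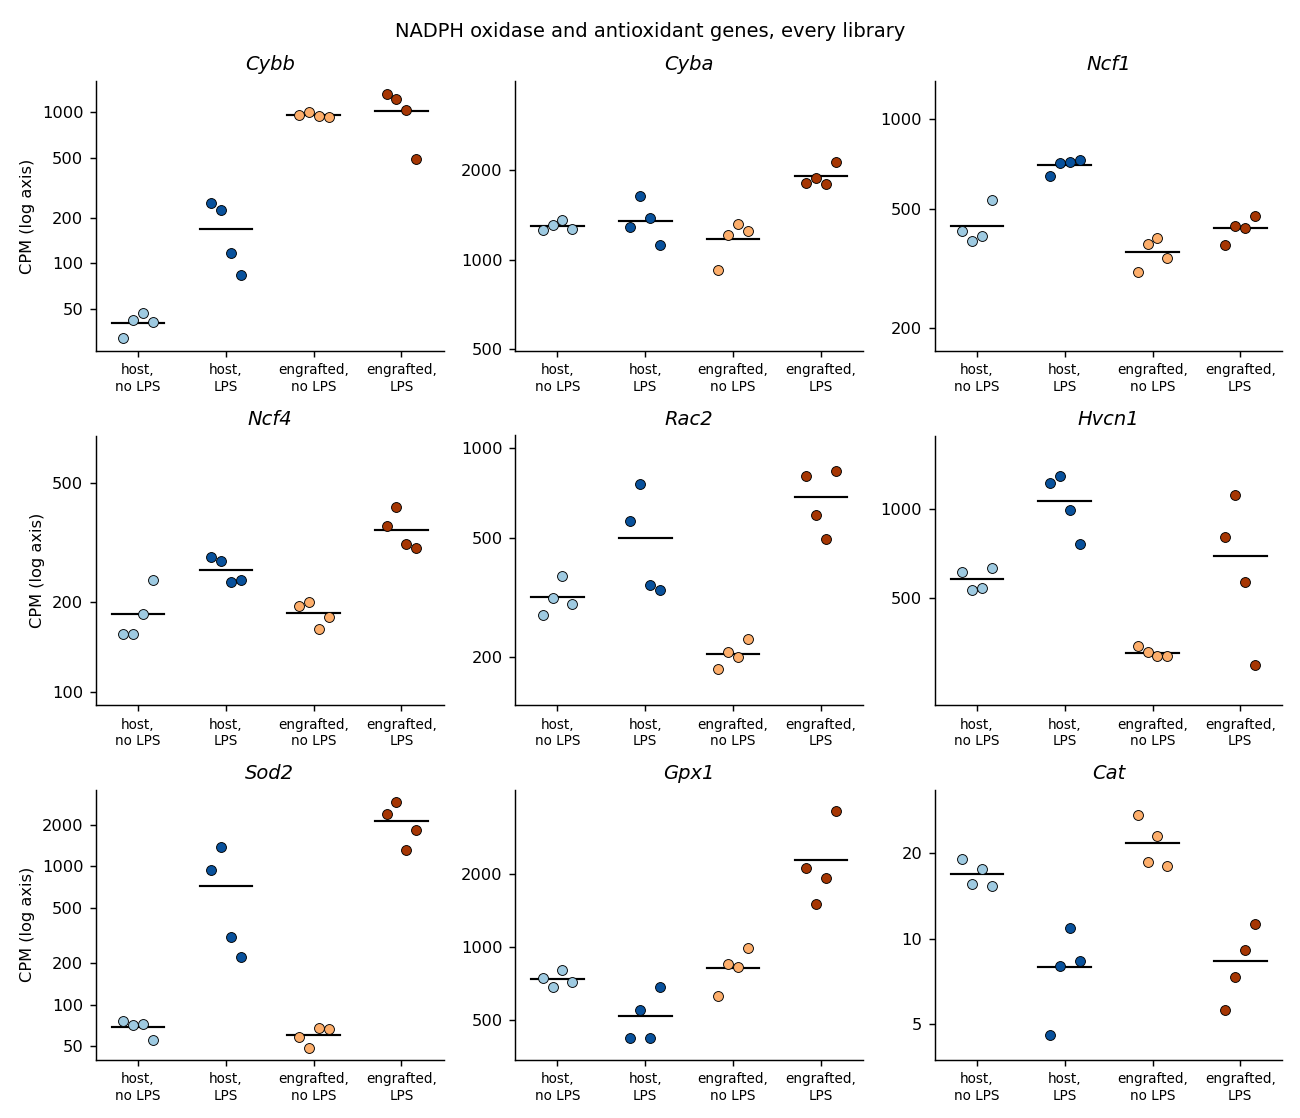
Levels of the 9 genes in CPM on log axes, with 1 panel a gene and 1 point a library, in mouse order within each of the 4 groups; the horizontal bars are group means (n = 4). Cybb is at 32.2 to 250.01 CPM in host microglia and at 488 to 1314 CPM in engrafted cells, Sod2 is at 48.9 to 76.1 CPM in the libraries without LPS and at 219.8 to 2906 CPM in those with LPS, and Gpx1 with LPS is at 417 to 680.2 CPM in host microglia and at 1503 to 3645 CPM in engrafted cells.

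Cyba, which encodes the membrane partner of the Cybb product (NM_007806, chromosome 8, 124948671 to 124956840, minus strand), did not follow Cybb. Without LPS it was counted at 925, 1210.4, 1317 and 1244 CPM in engrafted cells and at 1259, 1300.5, 1355 and 1269 CPM in host microglia. The log2 fold change between the populations was -0.09 (95% interval -0.31 to 0.14, adjusted p = 0.624, edgeR, Benjamini-Hochberg). With LPS the engrafted libraries reached 1809.8, 1876, 1796 and 2119 CPM, above all engrafted libraries without LPS, and Cyba rose 1.58-fold (log2 fold change 0.66, SE 0.175, adjusted p = 0.00555 from edgeR). Host libraries with LPS held 1282, 1626, 1373 and 1123 CPM and overlapped with those without (log2 fold change 0.05, 95% interval -0.23 to 0.32, adjusted p = 0.821 from edgeR). Engrafted and host libraries with LPS did not overlap, and the difference of 0.52 on the log2 scale missed the threshold (adjusted p = 0.0595 from edgeR) but passed it with the mouse as a block (0.52, adjusted p = 0.0381 from edgeR). The means were 1174 ± 172 (engrafted without LPS), 1296 ± 43.2 (host without), 1351 ± 211 (host with) and 1900.3 ± 150.3 CPM (engrafted with LPS; SD, n = 4), and the libraries of the highest group overlapped with none of the others. The effects of LPS differed by 0.60 on the log2 scale without passing the test (SE 0.214, adjusted p = 0.0999 from edgeR), although it did with DESeq2 (0.64, adjusted p = 0.0207).

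Among the cytosolic subunits, Ncf1 (NM_001286037, chromosome 5, 134696129 to 134705495, minus strand), the organizer subunit, rose with LPS in host microglia, and its change in engrafted cells did not pass the test. Host libraries held 422, 392, 408 and 535 CPM without LPS and 643, 712, 718 and 729 CPM with LPS, with no overlap. This was a 1.58-fold rise (log2 fold change 0.66, SE 0.143, adjusted p = 0.000815, edgeR, Benjamini-Hochberg). Engrafted libraries held 309, 381, 401 and 342 CPM without LPS and 379, 438, 433 and 474 CPM with LPS, and these overlapped (0.23, 95% interval -0.12 to 0.57, adjusted p = 0.320 from edgeR). With LPS every engrafted library lay below every host library, 1.60-fold in the fit (-0.68, SE 0.181, adjusted p = 0.0138 from edgeR, and 0.0607 without the engrafted library of mouse 1, where the value was -0.61). Group means were ordered from 358 ± 41.0 (engrafted without LPS) over 431 ± 39.0 (engrafted with) and 439 ± 65.1 (host without) to 701 ± 38.8 CPM (host with LPS; SD, n = 4). The interaction was -0.44 and did not pass the test (95% interval -0.88 to -0.01, unadjusted p = 0.0551 and adjusted p = 0.270 from edgeR).

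Ncf4 (NM_008677, chromosome 15, 78075241 to 78093010, plus strand), a cytosolic subunit that binds a membrane phosphoinositide, was at 162 to 201 CPM in engrafted cells and at 156 to 237 CPM in host microglia without LPS. The population difference there was 0.06 on the log2 scale (95% interval -0.23 to 0.35, adjusted p = 0.815, edgeR, Benjamini-Hochberg) and had no stable sign, at -0.02 with library totals. With LPS the engrafted libraries held 359, 417, 314 and 303 CPM, above all those without, a 1.85-fold rise (0.89, SE 0.175, adjusted p = 0.000469 from edgeR). Host libraries with LPS held 282, 274, 234 and 236 CPM and overlapped with those without, with a log2 fold change of 0.47 (SE 0.157, adjusted p = 0.0196 from edgeR). The host value missed the threshold without host LPS mouse 1 (0.44, adjusted p = 0.0534 from edgeR) or without host mouse 5, 6 or 7 (0.42, 0.40 and 0.46, adjusted p = 0.0626, 0.0896 and 0.0543 from edgeR). Means were 183 ± 37.9 (host without LPS), 184 ± 17.1 (engrafted without), 257 ± 24.9 (host with) and 348 ± 52.1 CPM (engrafted with LPS; SD, n = 4). With LPS every engrafted library lay above every host library, and the difference of 0.46 on the log2 scale missed the threshold (adjusted p = 0.102 from edgeR). It passed with DESeq2 (0.48, adjusted p = 0.0391) and without the engrafted library of mouse 4 (0.52, adjusted p = 0.0384 from edgeR). The interaction was 0.40 (95% interval -0.06 to 0.86, adjusted p = 0.373 from edgeR).

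Rac2, the Rac GTPase of blood cells (NM_009008, chromosome 15, 78389599 to 78403213, minus strand), was lower in engrafted cells than in host microglia without LPS and rose in both populations with LPS. Without LPS the engrafted libraries held 181, 207, 199.9 and 229 CPM and the host libraries 275, 314, 373 and 301 CPM, with no overlap. The difference was 1.49-fold (log2 fold change -0.58, SE 0.136, adjusted p = 0.00198, edgeR, Benjamini-Hochberg) and missed the threshold when all 16 libraries shared a fit (-0.58, adjusted p = 0.0618 from edgeR). With LPS the engrafted libraries held 805, 598, 496 and 835 CPM, a 3.27-fold rise (1.71, SE 0.204, adjusted p = 1.72e-06 from edgeR). Host libraries with LPS held 568, 755, 346.5 and 334 CPM, where 346.5 and 334 lay within the range of those without. The host rise was 1.57-fold (0.65, SE 0.204, adjusted p = 0.0142 from edgeR), and without host mouse 2 it was 0.41 on the log2 scale and missed the threshold (adjusted p = 0.0542 from edgeR).

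The LPS effect on Rac2 was larger in engrafted cells by 1.05 on the log2 scale (SE 0.309, adjusted p = 0.0415 from edgeR, Benjamini-Hochberg). This call was lost in 10 of 16 fits that left out a library, where the value ran from 0.92 to 1.31 over all 16 and adjusted p from 0.00487 to 0.0955. It held without the engrafted library of mouse 2, 3 or 8 and without the host library of mouse 1, 2 or 5. The call also held with the mouse as a block (1.08, adjusted p = 0.00979 from edgeR). Means ran from 204 ± 19.5 (engrafted without LPS) over 316 ± 41.5 (host without) and 501 ± 201 (host with) to 684 ± 164 CPM (engrafted with LPS; SD, n = 4). Between the populations with LPS the difference in Rac2 was 0.48 (95% interval -0.04 to 0.99, adjusted p = 0.254 from edgeR). Engrafted cells held 1.42, 1.43 and 2.50 times the Rac2 of host microglia in LPS mice 1, 3 and 4, and 0.792 times in mouse 2, against 0.535 to 0.759 times in mice without LPS.

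Hvcn1, the proton channel (NM_001042489, chromosome 5, 122659738 to 122692306, plus strand), was lower in engrafted cells than in host microglia of the same mouse in all 8 mice. Its transcript overlaps with Tctn1 on the opposite strand, and reads had been counted by strand. Without LPS the engrafted libraries held 347, 330.4, 321 and 320.4 CPM and the host libraries 613, 533, 543 and 630.1 CPM. This was a 1.69-fold difference with no overlap (log2 fold change -0.76, SE 0.120, adjusted p = 2.04e-05, edgeR, Benjamini-Hochberg). With LPS the host libraries held 1220.2, 1285, 986 and 758 CPM, all above those without, a 1.82-fold rise (0.86, SE 0.162, adjusted p = 0.000193 from edgeR). The engrafted libraries with LPS held 803, 1114, 567 and 300.0 CPM, and that of mouse 4 lay below all engrafted libraries without LPS.

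In engrafted cells the rise of Hvcn1 was 2.05-fold (1.04, SE 0.263, adjusted p = 0.00394, edgeR, Benjamini-Hochberg), close to the fold threshold of 2. It stayed under 2-fold with library totals (0.96), without engrafted mouse 1 or without engrafted mouse 2, where it was lowest (0.75), and was 1.29 without mouse 4, with adjusted p from 2.89e-06 to 0.0179 over the libraries left out. Between the populations with LPS the difference was -0.59 (95% interval -1.16 to -0.02, unadjusted p = 0.0587 and adjusted p = 0.196 from edgeR). With the mouse as a block this difference was -0.70 and passed the test (adjusted p = 0.0118 from edgeR). Host microglia held 1.52, 1.15, 1.74 and 2.53 times the Hvcn1 of engrafted cells in LPS mice 1 to 4 and 1.61 to 1.97 times in mice without LPS. In order, the means were 329.6 ± 12.2 (engrafted without LPS), 579.96 ± 48.9 (host without), 696 ± 346 (engrafted with) and 1063 ± 240.1 CPM (host with LPS; SD, n = 4). The interaction was 0.17 (95% interval -0.48 to 0.82, adjusted p = 0.835 from edgeR).

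**Figure D2:**
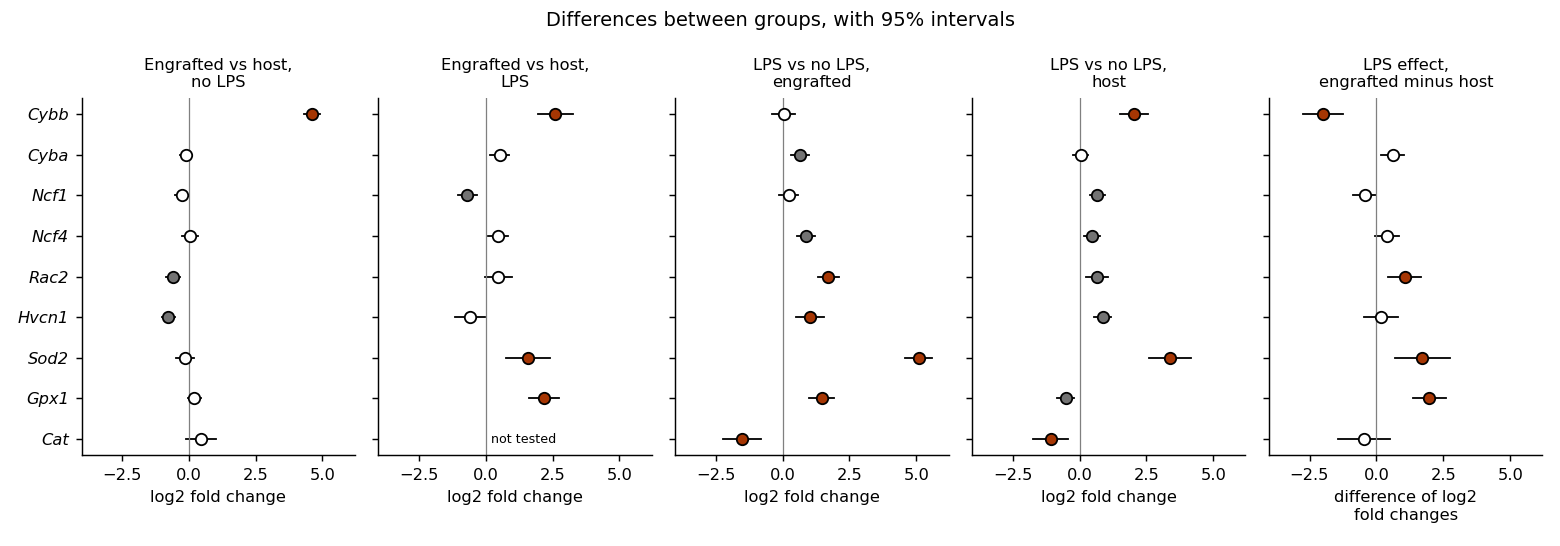
Fitted differences of the 9 genes in each of the 5 comparisons on the log2 scale, with 95% intervals as bars; filled brown points passed both the adjusted p and the 2-fold threshold, grey points the adjusted p alone, and open points neither. Cybb stands at 4.6 between the populations without LPS and at 0.04 for LPS in engrafted cells, Sod2 at 5.09 and 3.38 for LPS in engrafted cells and host microglia, and Gpx1 at 1.46 and -0.52 in the same comparisons. Cat was not tested between the populations with LPS.

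Sod2, the mitochondrial superoxide dismutase (NM_013671, chromosome 17, 13200705 to 13210985, plus strand), had the largest LPS effect of the 9 genes in either population. Without LPS it was at 58.4, 48.9, 67.2 and 66.6 CPM in engrafted cells and at 76.1, 70.9, 71.8 and 55.1 CPM in host microglia. These levels overlapped (log2 fold change -0.13, 95% interval -0.47 to 0.21, adjusted p = 0.644, edgeR, Benjamini-Hochberg). With LPS it reached 2370.2, 2906, 1319 and 1842 CPM in engrafted cells, a 34-fold rise (5.09, SE 0.259, adjusted p = 2.04e-11 from edgeR). In host microglia it reached 946, 1382, 310.3 and 219.8 CPM, a 10.4-fold rise (3.38, SE 0.397, adjusted p = 6.11e-07 from edgeR).

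Group means were 60.3 ± 8.58 and 68.5 ± 9.18 CPM without LPS (engrafted and host), 715 ± 549.9 CPM in host microglia with LPS and 2109 ± 683 CPM in engrafted cells with LPS (SD, n = 4). The host libraries of LPS mice 1 and 2 held more Sod2 than those of mice 3 and 4, and the host libraries of mice 1 and 2 also held more Cybb, Rac2 and Hvcn1. With LPS engrafted cells held more Sod2 than host microglia by 1.59 on the log2 scale (3.01-fold, SE 0.424, adjusted p = 0.0137, edgeR, Benjamini-Hochberg), although the host library of mouse 2 lay above the engrafted library of mouse 3. The call was lost with DESeq2 (1.61, adjusted p = 0.0546) and held in all 8 fits that left out a library (1.29 to 2.12). Within each LPS mouse engrafted cells were higher, by 2.51, 2.10, 4.25 and 8.38 times. The LPS effect was larger in engrafted cells by 1.71 (SE 0.520, adjusted p = 0.0477 from edgeR), just inside the threshold. It was past the threshold in 4 of 16 fits that left out a library, those without the engrafted library of mouse 3 or 4 or the host library of mouse 1 or 2, with values of 1.44 to 2.24 and adjusted p of 0.00299 to 0.103 over all 16. With the mouse as a block it was 2.00 (adjusted p = 0.000213 from edgeR), and it missed the threshold with DESeq2 (1.76, adjusted p = 0.0995), with library totals (1.66, adjusted p = 0.0503 from edgeR) and without mice 4 and 8 (1.64, adjusted p = 0.0520 from edgeR). Monocyte markers summed to 962 to 2060 CPM in the engrafted libraries with LPS against 175 to 293 CPM without, and their part in the rise of Sod2, Gpx1 and Rac2 there was not tested.

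Gpx1, the cytosolic glutathione peroxidase (NM_008160, chromosome 9, 108241411 to 108242673, plus strand), moved in opposite directions with LPS in the 2 populations. Without LPS it was at 629, 848, 824 and 984 CPM in engrafted cells and at 744, 682, 806 and 713 CPM in host microglia (log2 fold change 0.21, 95% interval -0.04 to 0.46, adjusted p = 0.242, edgeR, Benjamini-Hochberg). With LPS the engrafted libraries held 2121, 1503, 1926 and 3645 CPM, all above those without, a 2.75-fold rise (1.46, SE 0.245, adjusted p = 9.11e-05 from edgeR). Host libraries with LPS held 417, 548, 420.1 and 680.2 CPM, all below those without, 1.44-fold lower in the fit (-0.52, SE 0.160, adjusted p = 0.0117 from edgeR). The host fall missed the threshold without host mouse 1 or 3 (both -0.42, adjusted p = 0.0652 and 0.0573 from edgeR) and when all 16 libraries shared a fit (-0.52, adjusted p = 0.0686 from edgeR).

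With LPS the populations differed 4.55-fold in Gpx1 (2.18, SE 0.277, adjusted p = 1.44e-05, edgeR, Benjamini-Hochberg) with no overlap. Means were 517 ± 125 (host with LPS), 736 ± 52.8 (host without), 821 ± 147 (engrafted without) and 2298.5 ± 934 CPM (engrafted with LPS; SD, n = 4), and those without LPS did not differ beyond their spread. The interaction was 1.97 on the log2 scale (SE 0.313, adjusted p = 0.000171 from edgeR) and passed in all 16 fits that left out a library (1.63 to 2.15). Within mice, engrafted cells held 5.08, 2.74, 4.58 and 5.36 times the Gpx1 of host microglia with LPS and 0.845 to 1.38 times without. The engrafted library of mouse 4 had the highest Gpx1 and also the most red blood cell marker reads, 6608 CPM in sum, and the part of such cells was not tested. Without mice 4 and 8 the rise in engrafted cells was 1.22 (adjusted p = 1.22e-05 from edgeR) and the interaction 1.96 (adjusted p = 9.58e-06 from edgeR).

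Cat, the peroxisomal catalase (NM_009804, chromosome 2, 103294061 to 103325310, minus strand), fell with LPS in both populations, at low counts of 4 to 27 reads a library. Without LPS it was at 27.2, 18.5, 22.9 and 18 CPM in engrafted cells and at 19.0, 15.5, 17.5 and 15.3 CPM in host microglia (log2 fold change 0.46, 95% interval -0.10 to 1.02, adjusted p = 0.261, edgeR, Benjamini-Hochberg). With LPS it was at 5.59, 7.32, 9.11 and 11.2 CPM and at 4.59, 7.98, 10.9 and 8.35 CPM, with every library of either population below those without LPS. The fall was 2.87-fold in engrafted cells (-1.52, SE 0.360, adjusted p = 0.00220 from edgeR) and 2.12-fold in host microglia (-1.08, SE 0.327, adjusted p = 0.0112 from edgeR). Cat entered both tests only through its libraries without LPS, with 10 to 27 reads there and 4 to 9 reads with LPS. The host fall missed the adjusted p without host mouse 1 (-0.88, adjusted p = 0.0563 from edgeR). The interaction was -0.45 (95% interval -1.42 to 0.52, adjusted p = 0.677 from edgeR). Between the populations with LPS the gene stayed under the low-count filter, and the means of log2(CPM + 1) differed by 0.07 (two-sided exact permutation test, p = 0.771, where 4 libraries against 4 allow no p below 0.0286).

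**Figure D3:**
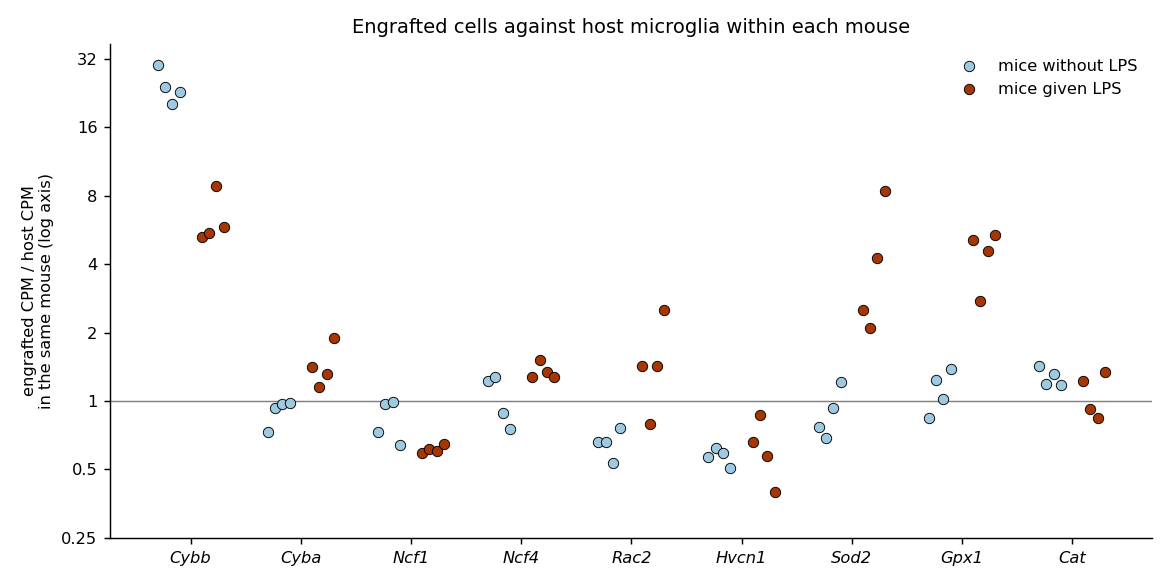
Ratio of CPM in engrafted cells to CPM in host microglia of the same mouse for the 9 genes, on a log axis; each point is a mouse (4 without LPS in light blue, 4 with LPS in brown) and the grey line marks equal levels. Cybb ratios are 20.2 to 29.9 without LPS and 5.26 to 8.80 with LPS, Hvcn1 ratios are below 1 in all 8 mice, and Gpx1 ratios are 0.845 to 1.38 without LPS and 2.74 to 5.36 with LPS.

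Counted over the list, a gene was called when it passed an adjusted p of 0.05 and differed more than 2-fold. Between engrafted cells and host microglia without LPS, 1 of 9 genes was called, Cybb, where 11.0% of all 8042 genes tested were called. By adjusted p alone 1 was higher (13.6% of all genes) and 2 were lower (13.7%), and the median log2 fold change was -0.09 against 0.02 over all genes. With LPS, 3 of the 8 tested were called (Cybb, Sod2 and Gpx1, against 11.1% of 7843 genes). By adjusted p alone 3 were higher (9.52%) and 1 was lower (7.62%), with a median of 0.50 against -0.01. Scaling by library totals shifted the median of all genes in this comparison by -0.15 and the share of called genes that were higher in engrafted cells from 60.8% to 48.7%, with 3 of the 8 tested called as before.

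In engrafted cells LPS gave 5 calls among the 9 genes (21.5% of 7609 genes), of which Rac2, Hvcn1, Sod2 and Gpx1 rose and Cat fell. By adjusted p alone 6 rose (19.4%) and 1 fell (19.3%), with a median of 0.89 against -0.01. In host microglia LPS gave 3 calls (18.0% of 8238 genes), Cybb and Sod2 upward and Cat downward. In both populations Cat had passed the low-count filter only through the libraries without LPS, where it was higher. By adjusted p alone 6 rose (19.2%) and 2 fell (20.5%), with a median of 0.65 against 0.01. The difference in LPS effect was called for 4 of 9 genes (4.95% of 8847 genes). Of these, 3 had the larger value in engrafted cells (2.45% of all genes) and 1, Cybb, in host microglia (2.50%). By adjusted p alone the numbers were the same (2.97% and 2.90% of all genes). Without mice 4 and 8 or with library totals 2 were called, and leaving out each library gave 2 to 4.

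Other genes of oxidant production and removal were read from a list of 58 genes that includes the 9, and 32 to 34 of the other 49 passed the low-count filter in each comparison. Of the 58 genes, 15 passed it in no comparison. Without LPS, 3 of 32 were called, all higher in engrafted cells, where 6.25% of all genes tested were called higher and 4.73% lower. By adjusted p alone 8 were higher (13.6% of all genes) and 3 lower (13.7%). With LPS, 9 of 33 were called, all higher in engrafted cells, against 6.73% of all genes called higher and 4.34% lower. By adjusted p alone the number was the same, where 9.52% of all genes were higher and 7.62% lower. In engrafted cells LPS raised 9 of 32 and lowered 2 past both thresholds, where 10.2% of all genes were called higher and 11.3% lower. By adjusted p alone 15 rose (19.4% of all genes) and 4 fell (19.3%). In host microglia LPS raised 6 of 33 and lowered 2 past both thresholds, where 7.66% were called higher and 10.4% lower. By adjusted p alone 10 rose (19.2% of all genes) and 5 fell (20.5%). The difference in LPS effect was called for 6 of 34, 5 with the larger value in engrafted cells (2.45% of all genes) and 1 with the larger value in host microglia (2.50%).

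Mgst1, a membrane-bound glutathione transferase, had reads almost only in engrafted cells. Engrafted cells had 44.4 ± 3.26 CPM (SD, n = 4) of it without LPS and 69.996 ± 14.5 CPM with LPS, and host libraries had 0 to 3 reads. The fitted log2 fold changes of 5.68 without LPS (adjusted p = 4.08e-10) and 5.47 with LPS (adjusted p = 4.21e-08, both from edgeR, Benjamini-Hochberg) therefore depended on the prior count and were 3.94 and 4.21 with a prior count of 2. Without LPS the value of Mgst1 lay above that of Cybb with the smaller prior count (4.6) and below it with a prior count of 2 (Cybb 4.53). Xdh, which encodes xanthine oxidoreductase, another source of oxidants, held 26.7 ± 10.2 CPM in engrafted libraries and 3.52 ± 0.551 CPM in host libraries without LPS, the latter from 2 to 4 reads (2.86, adjusted p = 5.47e-06 from edgeR, and 2.28 with a prior count of 2). It rose in host microglia with LPS to 44.6 ± 9.21 CPM (3.60, adjusted p = 8.95e-09 from edgeR, and 3.03 with a prior count of 2). It also rose in engrafted cells, to 121 ± 9.45 CPM (2.20, adjusted p = 7.69e-07 from edgeR), where it stayed higher than in host microglia with LPS (1.45, adjusted p = 2.91e-05 from edgeR). The interaction of Xdh missed the threshold (-1.41, adjusted p = 0.0524 from edgeR).

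Of 8 listed genes of glutathione supply, LPS raised 3 of the 6 tested in engrafted cells and 3 of the 7 tested in host microglia past both thresholds, where 10.2% and 7.66% of all genes were called higher. Gsr, the enzyme that regenerates reduced glutathione, went from 4.47 ± 1.85 to 70.02 ± 9.59 CPM there, from 2 to 4 reads without LPS (SD, n = 4; 3.91, and 3.31 with a prior count of 2, adjusted p = 1.32e-08, edgeR, Benjamini-Hochberg) and from 8.53 ± 3.12 to 15.8 ± 9.62 CPM in host microglia (0.93, adjusted p = 0.0775 from edgeR). Its interaction was 2.99 (SE 0.581, adjusted p = 0.00163 from edgeR), and 2.61 with a prior count of 2. Glrx, a glutathione-dependent thiol reductase, went from 26.0 ± 6.45 to 314 ± 55.4 CPM in engrafted cells (3.56, adjusted p = 3.68e-10 from edgeR) and from 28.8 ± 6.63 to 89.1 ± 23.8 CPM in host microglia (1.59, adjusted p = 5.72e-06 from edgeR). For Glrx the interaction was 1.97 (SE 0.319, adjusted p = 0.000208 from edgeR). Slc7a11, the cystine importer that feeds glutathione synthesis, rose in host microglia from 2.73 ± 0.951 to 42.4 ± 25.02 CPM (3.89, and 3.20 with a prior count of 2, adjusted p = 8.77e-07 from edgeR) and did not pass the filter in engrafted cells, at 1.60 ± 2.58 CPM without and 25.6 ± 21.4 CPM with LPS. The interaction of Slc7a11 was 0.23 (95% interval -1.91 to 2.38, adjusted p = 0.944 from edgeR).

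Of the other genes of the list, 2 of 32 fell past both thresholds with LPS in engrafted cells, Noxo1 and Nfe2l2 (11.3% of all genes). In host microglia 2 of 33 did, Noxo1 and Txnrd2 (10.4% of all genes). Noxo1, an organizer subunit of a related oxidase, fell from 29.1 ± 2.92 to 4.27 ± 1.69 CPM in engrafted cells and from 31.6 ± 9.17 to 5.58 ± 5.03 CPM in host microglia (SD, n = 4; -2.67 and -2.54, or -2.15 and -2.16 with a prior count of 2, adjusted p = 1.01e-05 and 5.41e-05, edgeR, Benjamini-Hochberg). Nfe2l2, which encodes the antioxidant regulator NRF2, fell in engrafted cells (-1.14, adjusted p = 9.06e-05 from edgeR), whereas its value of -0.39 in host microglia missed the threshold (adjusted p = 0.0590 from edgeR). The interaction of Nfe2l2 did not pass the test (-0.77, adjusted p = 0.0847 from edgeR). Txnrd2, the mitochondrial thioredoxin reductase, fell in host microglia (-1.20, adjusted p = 0.000326 from edgeR). It also fell in engrafted cells, by less than 2-fold (-0.75, adjusted p = 0.0226 from edgeR). The interaction of Txnrd2 did not pass the test (0.43, adjusted p = 0.554 from edgeR). Prdx1, a peroxiredoxin, was called with the larger LPS effect in host microglia (-1.03, adjusted p = 0.0286 from edgeR), and this call was lost in 9 of 16 fits that left out a library (-1.20 to -0.86) and without mice 4 and 8 (-0.84, adjusted p = 0.143 from edgeR). It also fell short of 2-fold with RLE size factors (-0.99), without a low-count filter (-0.98) and with a prior count of 2 (-0.99), and was lost with DESeq2 (-1.0). Chosen after their values were seen, Txn1 and Prdx6, a thioredoxin and a peroxiredoxin, also had larger LPS effects in engrafted cells (1.62 and 1.23, adjusted p = 0.00339 and 0.00474 from edgeR).

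**Figure D4:**
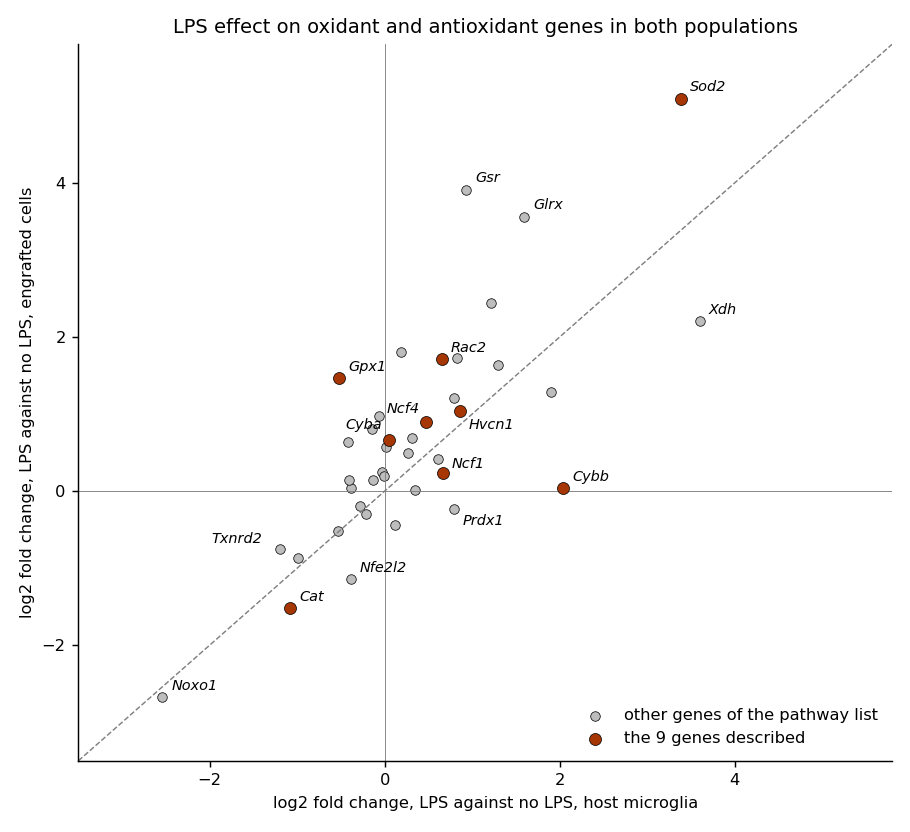
LPS effect on 40 genes of the pathway list that were tested in both populations, as log2 fold change in host microglia (horizontal axis) and in engrafted cells (vertical axis); brown points are the 9 genes described, grey points the others, and the dashed line marks equal effects. Gsr (0.93 and 3.91), Glrx (1.59 and 3.56), Sod2 (3.38 and 5.09) and Gpx1 (-0.52 and 1.46) lie above the line, and Cybb (2.04 and 0.04) and Xdh (3.60 and 2.20) below it.

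The genes most like Cybb over the 16 libraries were found by the root mean square difference of log2 CPM after removing each gene's mean, among 6784 genes. They were Ahr, the aryl hydrocarbon receptor (0.456), Vnn3, a vanin (0.508), and Ptger4, a prostaglandin E receptor (0.567), where the median over all genes compared was 2.00. Ahr had no read in any host library without LPS, 13.9 ± 7.54 CPM (SD, n = 4) in host microglia with LPS, and 43.8 ± 12.5 and 52.8 ± 19.7 CPM in engrafted cells without and with LPS. Ptger4 followed with 2.66 ± 2.60, 13.4 ± 7.52, 60.5 ± 8.47 and 54.0 ± 16.7 CPM in the same order, and Vnn3 with 0.199 ± 0.399, 2.29 ± 1.56, 45.3 ± 9.53 and 32.2 ± 9.86 CPM. For Sod2 the nearest genes were Ikbke, a kinase of innate immune signalling (0.537), Ehd1, a protein of membrane recycling (0.604), and Acod1, the enzyme that makes itaconate (0.626), against a median of 2.21. Ehd1 went from 63.5 ± 9.46 to 1261 ± 464 CPM with LPS in engrafted cells and from 48.0 ± 9.65 to 603 ± 146 CPM in host microglia. These likenesses describe 16 libraries that come in pairs from the same mouse and differ in depth. Ahr, Vnn3 and Ptger4 had 0 to 6 reads in host libraries without LPS. Ikbke had 1 to 6 and Acod1 0 to 4 reads in the libraries without LPS. At such counts log2 CPM depended on the prior count of 2, and so did the likeness.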

How the data were processed

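RNA of 16 libraries was analysed, 4 for each combination of population and challenge. Values are raw counts of reads per gene, as the authors deposited them. The authors had made libraries from 10000 sorted cells by a derivation of MARS-seq, which primes from the poly-A tail, mapped reads to mm9 with HISAT (version 0.1.5 in the submitters' processing notes), kept unique reads and counted them on exons by strand with HOMER. No removal of PCR duplicates is given in the sources used here.

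The counts were tested in R 4.3.3 with edgeR 4.0.16, by the quasi-likelihood test over all genes that passed its filter (minimum count 10, minimum total 15), with TMM scaling, a prior count of 0.125 and Benjamini-Hochberg adjustment. Each of 4 pairwise comparisons used its own 8 libraries and the interaction used all 16. A gene was called at an adjusted p below 0.05 and more than 2-fold. SE came from the log2 fold change and its F statistic, and 95% intervals came from the SE by the normal distribution. These intervals are somewhat narrower than the F test allows, so an interval just clear of 0 can go with an unadjusted p above 0.05. The filter could be passed through the higher of 2 groups alone, as for Cat, Mgst1, Noxo1, Gsr, Slc7a11 and Xdh, which had few reads in the lower group. A gene under the filter was compared by an exact permutation test of log2(CPM + 1).

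The members and lists were chosen with earlier results of these data known. Genes named are the 9 members, the 3 called genes per direction and comparison with the largest change in the pathway list (members included), and the 3 genes most like Cybb and Sod2 (log2 CPM with a prior count of 2, mean of at least 20 CPM). Of the 58 listed symbols 1 was found by its RefSeq accession. Marker lists of B cells, T and NK cells, border macrophages, endothelial cells, astrocytes, oligodendrocytes and neurons were also summed. B cell markers gave at most 74.2 CPM, T and NK cell markers 22.4, endothelial markers 40.5, oligodendrocyte markers 99.5 and neuronal markers 120 CPM in a library. Border macrophage markers gave 667 to 880 CPM in engrafted and 17.6 to 29.5 CPM in host libraries, and astrocyte markers 4.92 to 35.4 and 151 to 283 CPM.

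Both populations came from the same animals, so the mouse was a replicate block among the alternatives. After removing group means, Pearson's r between both libraries of a mouse was -0.03 to 0.21. Alternatives were RLE size factors, library totals, DESeq2 1.42.0, other low-count filters, 1 fit for all libraries and leaving out each library, and, chosen after seeing the data, a prior count of 2 and leaving out mice 4 and 8. Replicates of a group differed by 2.07 to 10.1 times counting noise (chi-square per degree of freedom, 24 pairs), so no library was a copy of another. The tests were run on simulated counts with the same spread for every gene, no pairing by mouse and no outlying library. That check therefore does not cover these features of the data.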

Additional observations from a re-analysis of the deposited data

Results flagged for a closer look

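The effect of LPS differed between engrafted cells and host microglia for 4 of the 9 genes, by the interaction term over 16 libraries (edgeR, Benjamini-Hochberg). By the same adjusted p, 2.97% of all 8847 genes tested had the larger value in engrafted cells and 2.90% in host microglia. For Cybb the difference was -2.01 on the log2 scale (adjusted p = 0.00129), with all 4 host libraries given LPS above those without and the engrafted libraries overlapping. For Gpx1 it was 1.97 (adjusted p = 0.000171), with all 4 engrafted libraries above and all 4 host libraries below those without LPS. For Rac2 it was 1.05 (adjusted p = 0.0415), and for Sod2 it was 1.71 (adjusted p = 0.0477). The last 2 were lost under several alternatives, among them leaving out mice 4 and 8 (0.90 for Rac2 and 1.64 for Sod2) and library totals (0.98 and 1.66). With the mouse as a block both calls held, at 1.08 for Rac2 and 2.00 for Sod2 (adjusted p = 0.00979 and 0.000213 from edgeR). In 36 sets of 4 libraries (9 genes in 4 groups), no library lay far enough from the others to pass Dixon's test at the 95% level.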

How the results depend on the processing

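Of 790 values of the 9 genes under the alternatives, 745 kept their direction and their side of the call, 34 lost the call, 1 gained it and 10 changed sign, all of these 10 for differences that were not called. The calls of Cybb and Gpx1 held under every alternative run, in each comparison where they were called. Without a low-count filter 1454 genes were called between the populations without LPS and 1352 with LPS. With at least 10 reads in every library, which left fewer genes to test, the calls were 402 without LPS, 381 with LPS, 816 for LPS in engrafted cells, 871 for LPS in host microglia and 251 for the interaction, and 3 members were called for LPS in engrafted cells, with Cat no longer tested, Cybb at -0.05 and Hvcn1 at 0.95. With library totals 2 members were called in the interaction, Ncf4 without LPS was at -0.02, Cybb for LPS in engrafted cells at -0.03, and the interaction of Rac2 and Sod2 at 0.98 and 1.66 (adjusted p = 0.0414 and 0.0503 from edgeR). Without mice 4 and 8 again 2 members were called in the interaction, with Rac2 at 0.90 and Sod2 at 1.64 (adjusted p = 0.0920 and 0.0520 from edgeR), and Hvcn1 in host microglia passed 2-fold (1.03). With DESeq2 the interaction of Sod2 was 1.76 (adjusted p = 0.0995). With a prior count of 2 Cat in host microglia was at -0.92, under 2-fold. The cause of these changes was not tested. The mouse as a replicate block left the number of called members as it was in all 3 comparisons it could enter (1, 3 and 4), with 902, 882 and 477 genes called, and besides Cyba and Hvcn1 with LPS it moved no member across the adjusted p. No paired analysis was possible for LPS within a population because the mice differ.

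Fits that left out 1 library called 903 to 1050 genes without LPS, 841 to 969 with LPS, 1538 to 1889 for LPS in engrafted cells, 1460 to 1744 in host microglia and 309 to 476 in the interaction. Members called ran from 4 to 5 in engrafted cells, 2 to 3 in host microglia and 2 to 4 in the interaction. Signs turned for Cyba without LPS (-0.15 to 0.02), Ncf4 without LPS (-0.01 to 0.20), Cybb for LPS in engrafted cells (-0.09 to 0.27), Cyba for LPS in host microglia (-0.03 to 0.13) and the interaction of Hvcn1 (-0.12 to 0.40). Without host mouse 8 not given LPS, Txnrd2 was at -0.98. For Cat, 3 reads are 2.39 to 8.41 CPM, against levels of 4.59 to 27.2 CPM.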
